A study of Mus musculus with 12 samples.

Results

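The cell division machinery was followed in mouse 2-cell embryos through 51 genes. They were chosen by name for their roles in the cell cycle, with earlier results of these data known. They fall into 9 genes of the G1/S transition, 12 of entry into mitosis at G2/M, 9 of the aurora kinase, Plk4 and spindle group, 7 of the spindle checkpoint and 14 of the anaphase-promoting complex (APC/C) and anaphase. Each matched a gene symbol of the RNA-seq table, which has 24918 entries. All 51 had counts in each of the 8 libraries, and all 51 were among the 14994 genes tested.

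Cyclin-dependent kinases drive the cycle only when bound to a cyclin, D and E types toward S phase and A and B types toward mitosis. WEE kinases hold Cdk1 inactive by phosphorylating it, and CDC25 phosphatases remove that phosphate. The spindle checkpoint blocks the APC/C until chromosomes are attached, after which the APC/C marks cyclin B and securin for destruction. The egg loads many of these mRNAs before fertilization, and the 2-cell embryo replaces maternal mRNA with its own during embryonic genome activation.

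Embryos treated with IWR1-endo, a tankyrase inhibitor called IWR1 here, were cultured at 50 µM, and control embryos received the same volume of its solvent DMSO. Both came from superovulated NSA(CF-1) females bred to B6SJLF1/J males, were grown in KSOM medium under 5% oxygen from the pronuclear stage, and were collected 46 h after hCG. Each RNA-seq library pooled 10 embryos, with 4 libraries per treatment, and ATAC-seq, which maps open chromatin, pooled 100 embryos in 2 collections per treatment. The comparison asks which transcripts and open regions differ when tankyrase is inhibited.

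Total counts per library ran from 17963977 to 32931800 in IWR1 and from 16606155 to 49672143 in DMSO. The IWR1 columns of the table are numbered 5 to 8, and their libraries carry those numbers here. Of 9 early 2-cell marker genes 6 were higher in IWR1, with summed levels of 1442 to 2349 FPKM (counts scaled to gene length and library total) against 474 to 586 FPKM in DMSO. Of 8 oocyte markers 5 were higher and 1 lower, with sums of 3861 to 6021 FPKM in IWR1 and 1418 to 2286 FPKM in DMSO. Sperm markers summed to 11.1 to 24.5 FPKM in IWR1 and 0.295 to 1.82 FPKM in DMSO, and 5 macrophage markers to 23.0 to 37.5 FPKM in IWR1 and 3.35 to 5.86 FPKM in DMSO, with Ptprc at 0. Cumulus markers overlapped, at 17.7 to 24.5 FPKM in IWR1 and 19.6 to 36.8 FPKM in DMSO, and 4 of 5 blood markers (Hbb-bs, Hbb-bt, Hba-a1 and Hba-a2) were at 0. The part of these markers in the results below was not tested. In pooled embryos, fewer cells of a kind and less RNA per cell cannot be told apart.

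Cell cycle genes were more often lower than higher in IWR1 embryos. By edgeR's quasi-likelihood test at an adjusted p under 0.05, 25 of the 51 (49.0%) fell and 6 (11.8%) rose, while of all genes tested 25.4% were lower and 23.3% higher. Their median log2 fold change, IWR1 over DMSO, was -0.68, against 0.17 for all genes tested. After scaling, 23 genes (45.1%) lay below all 4 DMSO libraries in all 4 IWR1 libraries and 6 (11.8%) lay above, and the shares of all genes were 25.1% below and 24.4% above.

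Most falls were among genes abundant by their mean over all 8 libraries, IWR1 and DMSO together. Of the 37 cell cycle genes that averaged 10 FPKM or more in this mean, 24 (64.9%) fell and 3 (8.11%) rose. Their median log2 fold change was -0.85. Abundant genes as a whole also fell more often: 45.5% of the 5119 tested genes at this level were lower and 28.0% higher, with a median of -0.37. Of the 14 scarcer cell cycle genes 1 fell and 3 rose. The level that sorts a gene thus depends in part on its change. Trip13 (8.29 FPKM in IWR1, 54.1 FPKM in DMSO) counts as abundant, and Cdc25b (14.2 FPKM in IWR1, 2.88 FPKM in DMSO) as scarcer.

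**Figure D1:**
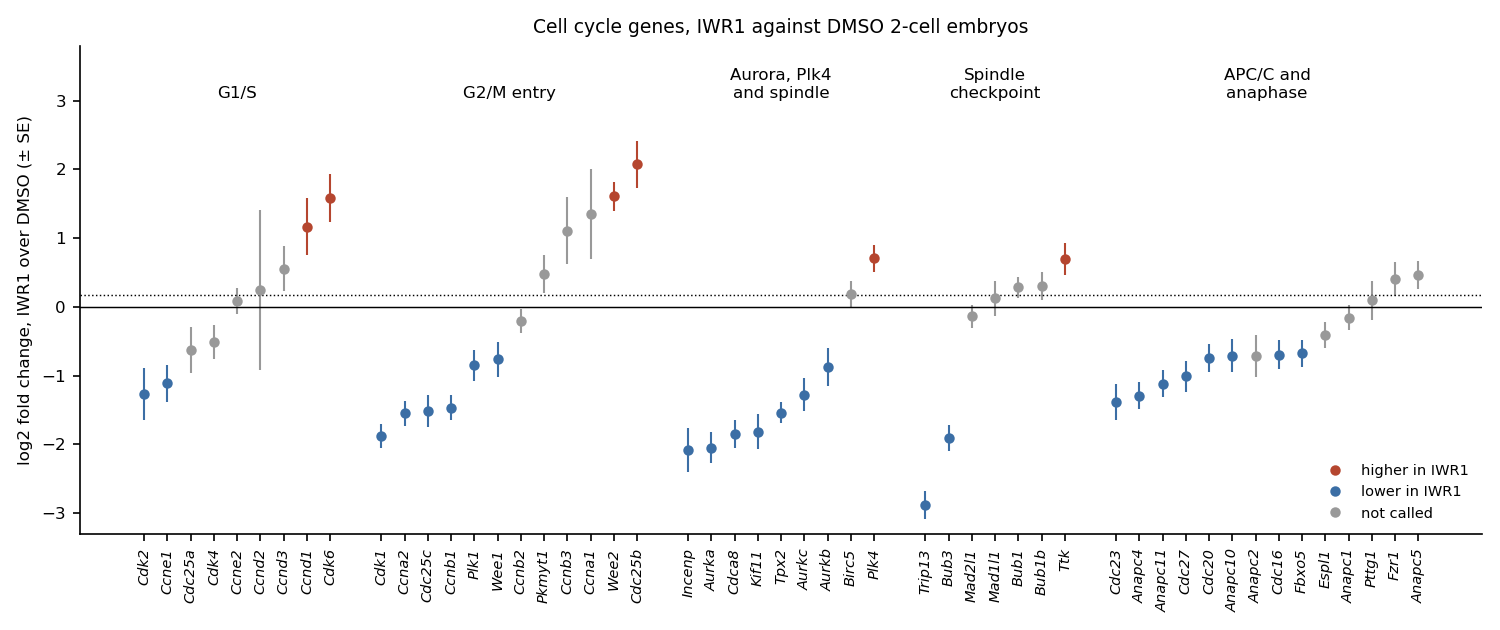
Log2 fold change of each of the 51 genes, IWR1 over DMSO, with its standard error, by role (n = 4 libraries per treatment; colours give the edgeR call, the dotted line the median of all genes tested, 0.17). Points below 0 dominate the aurora, Plk4 and spindle group, and Trip13 at -2.88 is the lowest of the 51.

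The genes of mitotic entry split, with the cyclin-dependent kinase Cdk1 and its main partners lower and a different phosphatase and a different WEE kinase higher. Of 12 genes, 6 fell (50.0%) and 2 rose (16.7%), and the median log2 fold change was -0.48. The share that fell is near the 45.5% of all tested genes averaging 10 FPKM or more, and above the 25.4% of all genes tested. Promoters of Cdk1 and 5 other genes are shown because they carry, or lack, the DNA words known from mitotic genes: the cell cycle homology region TTTGAA, a binding site of the MuvB complex, and CCAAT, the site of the factor NF-Y. Each stretch runs 5′ to 3′ from 200 bases before to 30 bases after the annotated start, from RefSeq on build GRCm38.p6. Capitals mark TTTGAA and CCAAT on either strand (TTCAAA and ATTGG), and in Cdca8 a TTTGAA and an ATTGG share a base. The stretches are Cdk1 (chr10:69352883-69353112, minus strand), Ccnb1 (chr13:100786457-100786686, minus strand), Ccnb2 (chr9:70421525-70421754, minus strand), Cdca8 (chr4:124936888-124937117, minus strand), Ttk (chr9:83834489-83834718, plus strand) and Trip13 (chr13:73937738-73937967, minus strand).
Cdk1: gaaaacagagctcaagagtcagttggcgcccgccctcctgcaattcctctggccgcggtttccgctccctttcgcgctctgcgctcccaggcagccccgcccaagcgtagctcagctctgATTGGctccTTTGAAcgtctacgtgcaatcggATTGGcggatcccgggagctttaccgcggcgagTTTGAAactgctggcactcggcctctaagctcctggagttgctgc
Ccnb1: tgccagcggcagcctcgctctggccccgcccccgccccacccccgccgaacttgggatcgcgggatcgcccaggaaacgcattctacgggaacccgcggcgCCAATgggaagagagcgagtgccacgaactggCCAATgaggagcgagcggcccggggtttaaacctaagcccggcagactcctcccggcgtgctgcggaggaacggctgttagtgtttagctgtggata
Ccnb2: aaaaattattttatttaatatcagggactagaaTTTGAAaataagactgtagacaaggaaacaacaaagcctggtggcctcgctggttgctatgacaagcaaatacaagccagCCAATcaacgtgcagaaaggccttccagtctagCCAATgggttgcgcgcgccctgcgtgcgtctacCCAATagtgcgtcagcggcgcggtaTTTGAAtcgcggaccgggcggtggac
Cdca8: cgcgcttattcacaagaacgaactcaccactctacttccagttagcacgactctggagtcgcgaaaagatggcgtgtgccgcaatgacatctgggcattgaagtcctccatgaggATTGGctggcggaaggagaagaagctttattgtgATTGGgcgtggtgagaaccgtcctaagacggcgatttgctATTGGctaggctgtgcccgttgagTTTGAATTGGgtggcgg
Ttk: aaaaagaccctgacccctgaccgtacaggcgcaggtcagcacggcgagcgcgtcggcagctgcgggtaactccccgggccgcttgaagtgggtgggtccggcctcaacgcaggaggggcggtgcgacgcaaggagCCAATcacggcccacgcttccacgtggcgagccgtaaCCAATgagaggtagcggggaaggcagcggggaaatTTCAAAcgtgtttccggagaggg
Trip13: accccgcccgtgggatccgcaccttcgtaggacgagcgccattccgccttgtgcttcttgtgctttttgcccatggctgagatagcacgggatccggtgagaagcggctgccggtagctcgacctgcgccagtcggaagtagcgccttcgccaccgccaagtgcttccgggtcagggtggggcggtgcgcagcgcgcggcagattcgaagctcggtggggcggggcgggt

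Cdk1 had 99.1, 111, 147 and 119.7 FPKM in the IWR1 libraries, against 377, 361, 383 and 417 FPKM in the DMSO libraries. Every IWR1 library lay well below every DMSO library. It fell by 1.88 on the log2 scale (SE 0.18, edgeR adjusted p = 1.5e-05). Its promoter holds TTTGAA 15 and 71 bases before the start.

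The A and B cyclins moved apart within their families. Ccna2, the cyclin A of dividing body cells, had 117, 155, 186 and 161 FPKM in IWR1 and 349, 424, 401 and 411 FPKM in DMSO, without overlap, and fell by 1.55 (SE 0.18, edgeR adjusted p = 4.16e-05). Ccnb1, the main mitotic cyclin B, had 372, 464, 565 and 436 FPKM in IWR1 and 1029, 1171, 1143 and 1114 FPKM in DMSO, again without overlap, and fell by 1.47 (SE 0.18, edgeR adjusted p = 4.89e-05). Ccnb1 was the most abundant cyclin of the set in both treatments.

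Its relative Ccnb2 was not called: 71.1, 70.9, 58.5 and 82.5 FPKM in IWR1 lay among 86.4, 74.8, 68.6 and 59.5 FPKM in DMSO, at a log2 fold change of -0.20 (SE 0.18, edgeR adjusted p = 0.358). The promoters of this pair differ in the words searched, since the Ccnb2 stretch shown holds TTTGAA at 2 positions and CCAAT at 3, and that of Ccnb1 holds CCAAT at 2 positions and no TTTGAA. Variants of these words were not searched. The scarce germline cyclins were not called by edgeR. Ccnb3, a cyclin of meiosis, averaged 1.07 ± 0.324 FPKM in IWR1 and 0.431 ± 0.112 FPKM in DMSO (SD, n = 4 each), at 1.11 (SE 0.49, edgeR adjusted p = 0.0774). DESeq2 and scaling by totals alone called Ccnb3 higher (adjusted p 0.0358 and 0.0389). Ccna1, the cyclin A of the germ line, averaged 2.46 ± 0.888 FPKM in IWR1 and 0.875 ± 0.753 FPKM in DMSO (SD, n = 4 each), at 1.35 (SE 0.65, edgeR adjusted p = 0.105). DMSO library 1 held 2.00 FPKM of Ccna1 and the other DMSO libraries 0.437 to 0.594 FPKM, and without that library its log2 fold change was 2.06 (edgeR adjusted p = 0.0248).

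The phosphatases that activate Cdk1 changed in opposite directions. Cdc25c had 30.7, 67.7, 69.2 and 72.8 FPKM in the IWR1 libraries and 148, 165, 139 and 148 FPKM in the DMSO libraries. It was lower in every IWR1 library, lowest in library 5, and fell by 1.51 (SE 0.23, edgeR adjusted p = 0.000225). Cdc25b, needed for meiotic resumption in mouse oocytes, had 16.4, 16.9, 12.0 and 11.5 FPKM in IWR1 and 1.78, 2.14, 4.57 and 3.04 FPKM in DMSO. It was higher in every IWR1 library and rose by 2.07 (SE 0.35, edgeR adjusted p = 0.000408), the largest rise of the 51. Among the less deep libraries alone its log2 fold change was 2.83, and among the deeper alone 1.57.

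The kinases that inhibit Cdk1 also split. Wee2, the WEE kinase of oocytes that keeps them in meiotic arrest, had 577, 644, 528 and 735 FPKM in the IWR1 libraries and 211, 219, 183 and 113 FPKM in the DMSO libraries. The treatments did not overlap, and it rose by 1.60 (SE 0.21, edgeR adjusted p = 8.05e-05); oocyte markers were higher in the same libraries. Wee1, the form of dividing body cells, had 11.4, 14.8, 24.7 and 21.9 FPKM in IWR1 and 32.7, 27.3, 29.4 and 19.1 FPKM in DMSO. These overlap, because DMSO library 4 was below IWR1 libraries 7 and 8. Wee1 fell by 0.76 (SE 0.25, edgeR adjusted p = 0.0252), and that call was lost without DMSO library 1 or 3 or without IWR1 library 5 or 6 (adjusted p 0.0638 to 0.0831), with scaling by totals alone (adjusted p = 0.0884) and among genes averaging 5 FPKM or more (adjusted p = 0.0634).

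Pkmyt1, the membrane-bound kinase of this family, averaged 9.12 ± 2.86 FPKM in IWR1 and 5.76 ± 1.16 FPKM in DMSO (SD, n = 4 each) and was not called at 0.48 (SE 0.28). Plk1, the polo kinase that promotes entry and spindle assembly, had 10.1, 14.0, 16.5 and 15.6 FPKM in IWR1 and 17.8, 22.9, 19.4 and 28.7 FPKM in DMSO. It was lower in every IWR1 library and fell by 0.85 (SE 0.23, edgeR adjusted p = 0.00839).

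**Figure D2:**
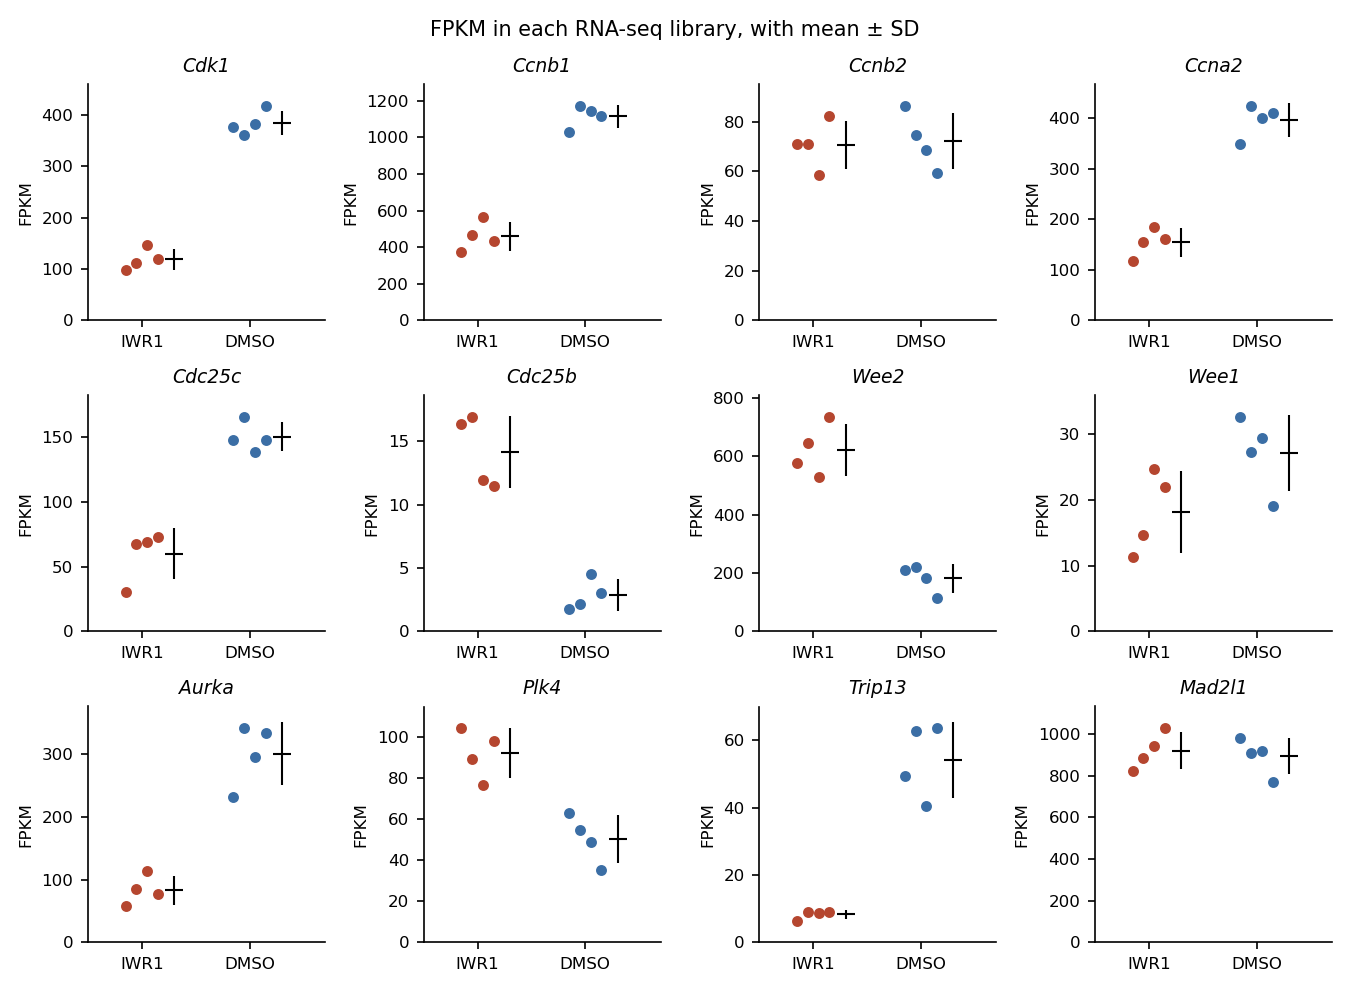
FPKM of 12 genes in each of the 4 IWR1 libraries (left) and the 4 DMSO libraries (right), with the mean and SD beside the points. Cdk1, Ccnb1, Ccna2, Cdc25c, Aurka and Trip13 are lower, Cdc25b, Wee2 and Plk4 are higher in all IWR1 libraries, and Wee1, Ccnb2 and Mad2l1 overlap.

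The genes of the G1/S transition showed no common direction, with 2 of 9 lower (22.2%), 2 higher (22.2%) and a median log2 fold change of 0.08. These shares are near those of all genes tested, 25.4% lower and 23.3% higher. Ccne1, a cyclin E, had 67.6, 203, 171 and 163 FPKM in IWR1 and 253, 276, 272 and 336 FPKM in DMSO. It was lower in every IWR1 library, above all in library 5, and fell by 1.11 (SE 0.27, edgeR adjusted p = 0.00505). Its relative Ccne2 averaged 44.6 ± 5.80 FPKM in IWR1 and 37.3 ± 9.09 FPKM in DMSO (SD, n = 4 each) and was not called at 0.08 (SE 0.18).

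Cdk2, the kinase of both E cyclins, had 5.31, 10.9, 12.8 and 15.4 FPKM in IWR1 and 14.8, 18.1, 18.1 and 41.2 FPKM in DMSO. IWR1 library 8 was slightly above DMSO library 1, and DMSO library 4 stood far above the rest. Cdk2 fell by 1.27 (SE 0.38, edgeR adjusted p = 0.0145). Without DMSO library 4 its log2 fold change was -0.77 and the call was lost (adjusted p = 0.0586).

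Both rises of this group were in scarce mRNAs that act with D cyclins. Cdk6, a kinase partner of the D cyclins, had 5.21, 4.63, 6.37 and 5.83 FPKM in IWR1 and 1.46, 1.60, 2.34 and 0.986 FPKM in DMSO. The treatments did not overlap, and it rose by 1.58 (SE 0.36, edgeR adjusted p = 0.00289). Ccnd1, a cyclin D, had 4.53, 4.66, 2.70 and 7.35 FPKM in IWR1 and 0.904, 1.83, 1.59 and 3.11 FPKM in DMSO. IWR1 library 7 lay below DMSO library 4, and Ccnd1 rose by 1.17 (SE 0.41, edgeR adjusted p = 0.0338). That call was lost without DMSO library 1, 2 or 3 and without IWR1 library 5, 6 or 8 (adjusted p 0.0570 to 0.111), and with median-centred libraries (adjusted p = 0.0592).

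The remaining members of the group were not called. Cdk4, the other partner of D cyclins, averaged 30.0 ± 7.48 FPKM in IWR1 and 37.2 ± 9.11 FPKM in DMSO (SD, n = 4 each), at -0.51 (SE 0.25, edgeR adjusted p = 0.110). Without DMSO library 1 it reached an adjusted p of 0.0413. Ccnd3, a cyclin D, averaged 8.67 ± 4.09 FPKM in IWR1 and 5.26 ± 1.62 FPKM in DMSO (SD, n = 4 each), at 0.55 (SE 0.33). Ccnd2, also a cyclin D, had a mean of 0.283 FPKM in IWR1 and 0.223 FPKM in DMSO, with 1 to 97 counts per library and a log2 fold change of 0.24 (SE 1.16), which is too imprecise to give a direction. Cdc25a, the phosphatase linked to S phase, averaged 2.66 ± 0.854 FPKM in IWR1 and 3.65 ± 0.832 FPKM in DMSO (SD, n = 4 each), at -0.63 (SE 0.33).

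The aurora kinases and their partners held the largest share of falls, 7 of 9 genes (77.8%), with a median log2 fold change of -1.54. The share lower was 25.4% of all genes tested and 45.5% of those averaging 10 FPKM or more. Aurka, the kinase of spindle poles, had 57.4, 84.9, 113 and 77.3 FPKM in the IWR1 libraries, against 233, 342, 296 and 334 FPKM in the DMSO libraries. The treatments did not overlap, and Aurka fell by 2.05 (SE 0.22, edgeR adjusted p = 2.9e-05). Tpx2, the protein that activates Aurka on the spindle, had 24.3, 34.6, 31.8 and 30.1 FPKM in IWR1 and 79.0, 85.4, 70.8 and 74.7 FPKM in DMSO. It also showed no overlap and fell by 1.54 (SE 0.16, edgeR adjusted p = 1.92e-05). Kif11, the motor that separates the poles, had 12.0, 25.1, 32.5 and 23.6 FPKM in IWR1 and 64.2, 71.4, 67.6 and 82.8 FPKM in DMSO, and fell by 1.82 (SE 0.25, edgeR adjusted p = 0.000117).

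The chromosomal passenger complex, in which aurora B or C binds Incenp, borealin and survivin, was lower in all measured parts but survivin. Cdca8, which encodes borealin, had 91.2, 143, 179 and 174 FPKM in IWR1 and 472, 520.3, 414 and 459.6 FPKM in DMSO. The values did not overlap, and Cdca8 fell by 1.85 (SE 0.20, edgeR adjusted p = 2.86e-05). Incenp, the scaffold of the complex, averaged 5.10 ± 2.36 FPKM in IWR1 and 18.8 ± 3.98 FPKM in DMSO (SD, n = 4 each) and fell by 2.08 (SE 0.32, edgeR adjusted p = 0.000222). Birc5, which encodes survivin, had 513, 435, 446 and 409 FPKM in IWR1 and 343, 302, 409 and 339 FPKM in DMSO. Its IWR1 libraries were level with or above the DMSO libraries in FPKM, and at 0.18 (SE 0.19, edgeR adjusted p = 0.457) it was not called.

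Both kinases of the complex fell. Aurkc, the aurora kinase of germ cells and early embryos, averaged 42.7 ± 14.1 FPKM in IWR1 and 91.8 ± 17.7 FPKM in DMSO (SD, n = 4 each) and fell by 1.28 (SE 0.24, edgeR adjusted p = 0.000876). Aurkb averaged 17.7 ± 7.02 FPKM in IWR1 and 28.2 ± 3.26 FPKM in DMSO (SD, n = 4 each) and fell by 0.88 (SE 0.27, edgeR adjusted p = 0.0185). The Aurkb call was lost without DMSO library 3 (adjusted p = 0.0632) and with library totals as the only scaling (adjusted p = 0.0579). Plk4, the kinase that starts centriole duplication, went the other way, with 104, 89.2, 76.5 and 98.2 FPKM in IWR1 and 63.1, 54.7, 48.7 and 35.2 FPKM in DMSO. It was higher in every IWR1 library and rose by 0.70 (SE 0.20, edgeR adjusted p = 0.0102).

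In the spindle checkpoint, 2 of 7 genes fell (28.6%), 1 rose (14.3%) and 4 were not called, and the median log2 fold change was 0.13. The share lower was 25.4% of all genes tested, near that of this group, and 45.5% of those averaging 10 FPKM or more. The median level of the 7 genes was 28.9 FPKM. Trip13, the ATPase that remodels the checkpoint protein Mad2, showed the largest fall of all 51 genes. It had 6.46, 9.04, 8.72 and 8.96 FPKM in the IWR1 libraries, against 49.4, 62.9, 40.5 and 63.6 FPKM in the DMSO libraries. The lowest DMSO library was far above the highest IWR1 library, and Trip13 fell by 2.88 (SE 0.20, edgeR adjusted p = 6e-06). The stretch of its promoter shown above holds neither TTTGAA nor CCAAT. Only these exact words were looked for, and variants of them were not searched in any promoter.

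Bub3, which brings the Bub kinases to unattached kinetochores, had 25.4, 42.4, 39.4 and 30.3 FPKM in IWR1 and 126, 125, 89.4 and 116 FPKM in DMSO. The treatments did not overlap, and Bub3 fell by 1.91 (SE 0.19, edgeR adjusted p = 1.64e-05). Its partners Bub1 and Bub1b did not follow it. Bub1 had 28.7, 33.3, 30.2 and 33.7 FPKM in IWR1 and 23.2, 25.9, 21.4 and 21.1 FPKM in DMSO, at 0.28 (SE 0.15, edgeR adjusted p = 0.142), and Bub1b averaged 9.38 ± 0.600 FPKM in IWR1 and 6.70 ± 0.757 FPKM in DMSO (SD, n = 4 each), at 0.30 (SE 0.20). Neither was called, although every IWR1 library was higher in FPKM; DESeq2 and scaling by totals alone called Bub1 higher (adjusted p 0.0374 and 0.0296).

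Ttk, the kinase at the head of the checkpoint, had 35.7, 47.8, 27.2 and 38.3 FPKM in IWR1 and 18.6, 31.4, 17.1 and 15.3 FPKM in DMSO. IWR1 library 7 was below DMSO library 2, and Ttk rose by 0.70 (SE 0.23, edgeR adjusted p = 0.0270). The call was lost without DMSO library 1, 3 or 4 or without IWR1 library 6 (adjusted p 0.0570 to 0.0861). Mad2l1, the Mad2 gene and the most abundant of the group, had 824, 886, 942 and 1029.6 FPKM in IWR1 and 979, 910.4, 919 and 771 FPKM in DMSO. These values overlapped throughout, at -0.14 (SE 0.16, edgeR adjusted p = 0.492). Mad1l1, the Mad1 gene, averaged 5.97 ± 0.610 FPKM in IWR1 and 4.88 ± 1.19 FPKM in DMSO (SD, n = 4 each), at 0.13 (SE 0.26).

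Of 14 genes of the APC/C and anaphase, 8 fell (57.1%) and 0 were called higher. The share lower was 25.4% of all genes tested and 45.5% of those averaging 10 FPKM or more. Still, 1 of the 14 had an unadjusted p under 0.05 in the higher direction, and DESeq2 called 1 higher, Anapc5. The median log2 fold change was -0.70. The largest falls were in subunits of the complex itself. Cdc23, a subunit of the arm that binds substrate adaptors, had 3.81, 4.77, 4.86 and 2.37 FPKM in the IWR1 libraries and 8.42, 8.19, 9.57 and 9.94 FPKM in the DMSO libraries. The treatments did not overlap, and it fell by 1.39 (SE 0.26, edgeR adjusted p = 0.000974). Anapc4, a scaffold subunit, had 9.03, 10.2, 11.1 and 14.4 FPKM in IWR1 and 25.3, 31.1, 20.1 and 21.1 FPKM in DMSO. It too showed no overlap and fell by 1.29 (SE 0.20, edgeR adjusted p = 0.000243). Anapc11, the catalytic RING subunit, had 24.1, 24.6, 31.3 and 18.8 FPKM in IWR1 and 54.0, 46.1, 37.6 and 52.8 FPKM in DMSO, and fell by 1.12 (SE 0.19, edgeR adjusted p = 0.000484).

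Cdc27, also of the adaptor-binding arm, had 22.0, 35.1, 41.6 and 34.4 FPKM in IWR1 and 49.0, 48.2, 62.6 and 73.2 FPKM in DMSO. It was lower in every IWR1 library and fell by 1.01 (SE 0.23, edgeR adjusted p = 0.00327). Cdc16, of the same arm, averaged 9.81 ± 1.41 FPKM in IWR1 and 14.2 ± 2.54 FPKM in DMSO (SD, n = 4 each) and fell by 0.70 (SE 0.21, edgeR adjusted p = 0.0158). Anapc10, which helps hold substrates, had 95.9, 49.9, 57.7 and 54.5 FPKM in IWR1 and 82.5, 95.5, 90.7 and 106 FPKM in DMSO. IWR1 library 5 lay within the DMSO range and the other IWR1 libraries below it. Anapc10 fell by 0.71 (SE 0.24, edgeR adjusted p = 0.0271), a call lost without DMSO library 3 or 4 or without IWR1 library 6, 7 or 8 (adjusted p 0.0598 to 0.0846). Scaling by library totals alone also lost the calls of Anapc10 (adjusted p = 0.0545), Cdc16 (adjusted p = 0.0666) and Fbxo5 (adjusted p = 0.0700). A test limited to genes averaging 5 FPKM or more also recomputed the TMM scaling on those genes. It lost the calls of Anapc10 and Cdc16 (edgeR adjusted p 0.0713 and 0.0709). It called Anapc5 and Fzr1 higher (edgeR adjusted p 0.00883 and 0.0481) and, in the checkpoint, Bub1 and Bub1b (edgeR adjusted p 0.00808 and 0.0360). Log2 fold changes moved upward in it, that of Cdc16 from -0.70 to -0.48 and that of Fzr1 from 0.40 to 0.63.

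The other subunits were not called. Anapc1, the largest scaffold subunit, averaged 13.1 ± 1.54 FPKM in IWR1 and 12.9 ± 1.96 FPKM in DMSO (SD, n = 4 each), at -0.16 (SE 0.18). Anapc2, the cullin subunit, averaged 3.87 ± 0.857 FPKM in IWR1 and 5.62 ± 2.03 FPKM in DMSO (SD, n = 4 each), at -0.71 (SE 0.31, edgeR adjusted p = 0.0728), and without DMSO library 3 its adjusted p was 0.0360. Anapc5, a scaffold subunit, had 45.6, 88.7, 57.7 and 49.8 FPKM in IWR1 and 39.9, 43.9, 36.0 and 34.7 FPKM in DMSO. Every IWR1 library was above every DMSO library, yet at 0.47 (SE 0.20, edgeR adjusted p = 0.0774) it was not called, and without IWR1 library 5 its adjusted p was 0.0460.

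The coactivators and the inhibitor of the complex were not lowered alike. Cdc20, the coactivator of early mitosis, averaged 66.5 ± 9.47 FPKM in IWR1 and 98.3 ± 20.7 FPKM in DMSO (SD, n = 4 each) and fell by 0.74 (SE 0.20, edgeR adjusted p = 0.00957). Fzr1, the coactivator of mitotic exit and G1, had 12.0, 12.6, 10.7 and 9.87 FPKM in IWR1 and 5.58, 7.97, 6.26 and 10.2 FPKM in DMSO. The values overlapped in DMSO library 4, and at 0.40 (SE 0.25, edgeR adjusted p = 0.206) it was not called. Fbxo5, the inhibitor Emi1, averaged 105 ± 26.7 FPKM in IWR1 and 148 ± 21.2 FPKM in DMSO (SD, n = 4 each) and fell by 0.68 (SE 0.20, edgeR adjusted p = 0.0139).

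The anaphase targets were not called. Pttg1, which encodes securin and was the most abundant of the 51 genes, had 2051, 2175, 1161 and 895 FPKM in IWR1 and 1545, 1549, 869 and 1325 FPKM in DMSO. Libraries of both treatments spread widely and overlapped, at 0.10 (SE 0.28, edgeR adjusted p = 0.798). Espl1, which encodes separase, averaged 9.38 ± 1.31 FPKM in IWR1 and 11.0 ± 2.08 FPKM in DMSO (SD, n = 4 each), at -0.41 (SE 0.19, edgeR adjusted p = 0.0977).

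Ratios of FPKM were formed within each library for 16 pairs of genes with related functions, which cancels the library's scaling (0.1 FPKM added to both genes, exact permutation test, two-sided). In 12 of the 16 pairs the 4 IWR1 ratios and the 4 DMSO ratios did not overlap, for which the exact permutation test gives p = 0.0286, the smallest value that 4 against 4 libraries allow, and 0.0381 after Benjamini-Hochberg adjustment over the 16 pairs. Of the 12 pairs, 3 join a called rise with a called fall (Wee2 and Wee1, Cdc25c and Cdc25b, Plk4 and Plk1), and each of the other 9 includes a gene that edgeR did not call. The ratios use the same libraries as the fold changes above and are not independent of them. The pairs were also chosen with earlier results of these data known. Their p-values therefore describe the separation and give no independent test of it.

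For each Wee1 transcript per length there were 35.3 of Wee2 in IWR1 and 6.59 in DMSO (geometric means; log2 ratio 5.14 ± 0.54 in IWR1 and 2.72 ± 0.20 in DMSO, SD, n = 4 each). The ratio of Ccnb1 to Ccnb2 was 6.46 in IWR1 and 15.5 in DMSO (log2 ratio 2.69 ± 0.41 in IWR1 and 3.95 ± 0.28 in DMSO, SD, n = 4 each). That of Cdc25c to Cdc25b was 4.05 in IWR1 and 53.5 in DMSO, the largest shift among the pairs. Cdc25c stayed the more abundant of these phosphatases in both treatments.

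Ccne1 outweighed Ccne2 less in IWR1, with a Ccne2 to Ccne1 ratio of 0.317 in IWR1 and 0.130 in DMSO. The Plk4 to Plk1 ratio was 6.59 in IWR1 and 2.26 in DMSO, and the Fzr1 to Cdc20 ratio was 0.172 in IWR1 and 0.0765 in DMSO. The remaining pairs past the threshold were Cdk6 to Cdk4 (0.190 in IWR1, 0.0447 in DMSO), Pkmyt1 to Wee1 (0.507 in IWR1, 0.216 in DMSO), Fbxo5 to Fzr1 (8.99 in IWR1, 19.8 in DMSO) and Cdc25a to Cdc25b (0.188 in IWR1, 1.31 in DMSO). The ratios Ccna1 to Ccna2 (0.0160 in IWR1, 0.00207 in DMSO) and Ccnb3 to Ccnb2 (0.0161 in IWR1, 0.00726 in DMSO) also passed but rest on scarce mRNAs, and the pseudocount adds to them. The ratio of Bub1b to Bub1 was 0.301 in IWR1 and 0.295 in DMSO (difference of the log2 ratios 0.03, p = 0.886, exact permutation test). Aurkc to Aurkb, Ccnd1 to Ccnd3 and Ccnd2 to Ccnd3 did not pass either.

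**Figure D3:**
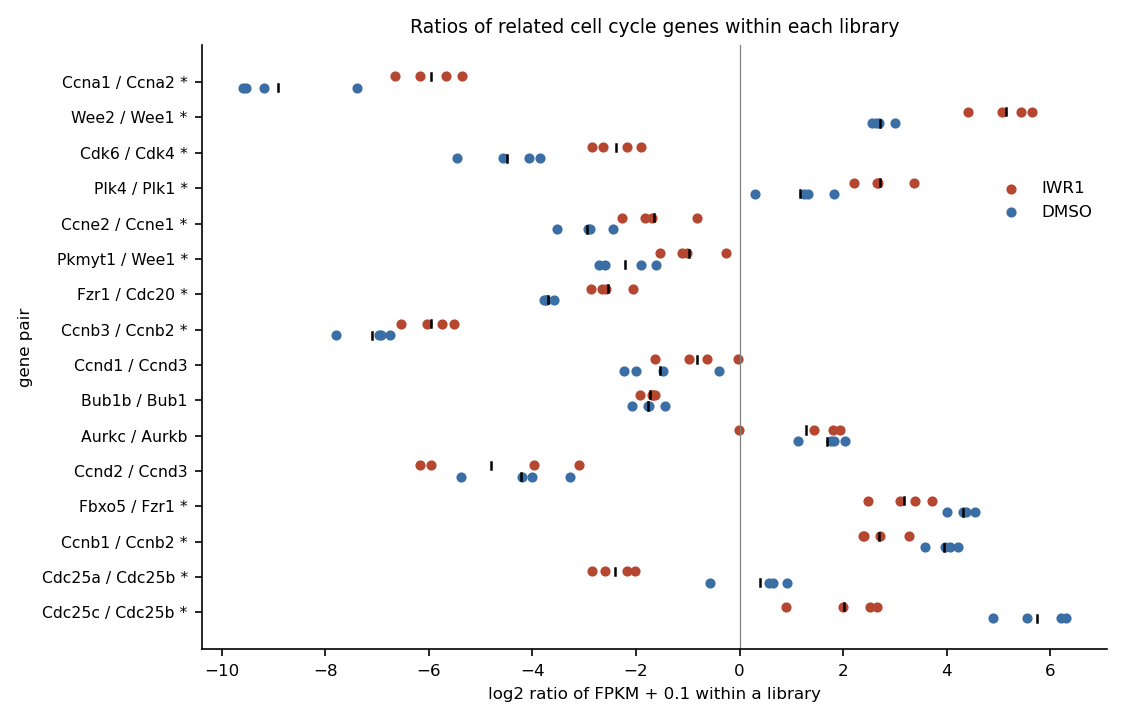
Log2 ratio of 2 related genes within each library for 16 pairs, IWR1 above DMSO in each row (vertical lines give means; an asterisk marks an adjusted p under 0.05). The IWR1 and DMSO points separate for 12 pairs, most widely for Cdc25c to Cdc25b.

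Libraries of a treatment were not equally far from the other treatment. IWR1 library 5 was the lowest IWR1 library in FPKM for 25 of the 51 genes and for 19 of the 25 that fell. DMSO library 1 was the lowest DMSO library for 22 of the 51. Without IWR1 library 5, 24 cell cycle genes fell and 6 rose. In every fit that left out 1 library, 21 of the falls and 4 of the rises (Cdk6, Cdc25b, Wee2 and Plk4) were called again.

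DMSO libraries 3 and 4 were the deepest, so the treatments were also compared among the less deep and among the deeper libraries, with 2 libraries per treatment each. Among the less deep 13 cell cycle genes fell and 3 rose, and among the deeper 20 fell and 3 rose. Called in both were the falls of Cdk1, Ccna2, Ccnb1, Cdc25c, Aurka, Incenp, Cdca8, Tpx2, Kif11, Bub3, Trip13 and Anapc4 and the rises of Cdc25b and Wee2. Ccne1, Aurkb, Cdc23 and Anapc11 just missed the threshold among the less deep libraries (edgeR adjusted p 0.0609, 0.0662, 0.0673 and 0.0525). Further from it there were the falls of Cdc16, Fbxo5, Cdk2, Wee1, Cdc27, Plk1, Cdc20 and Anapc10 (edgeR adjusted p 0.0917 to 0.646).

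**Figure D4:**
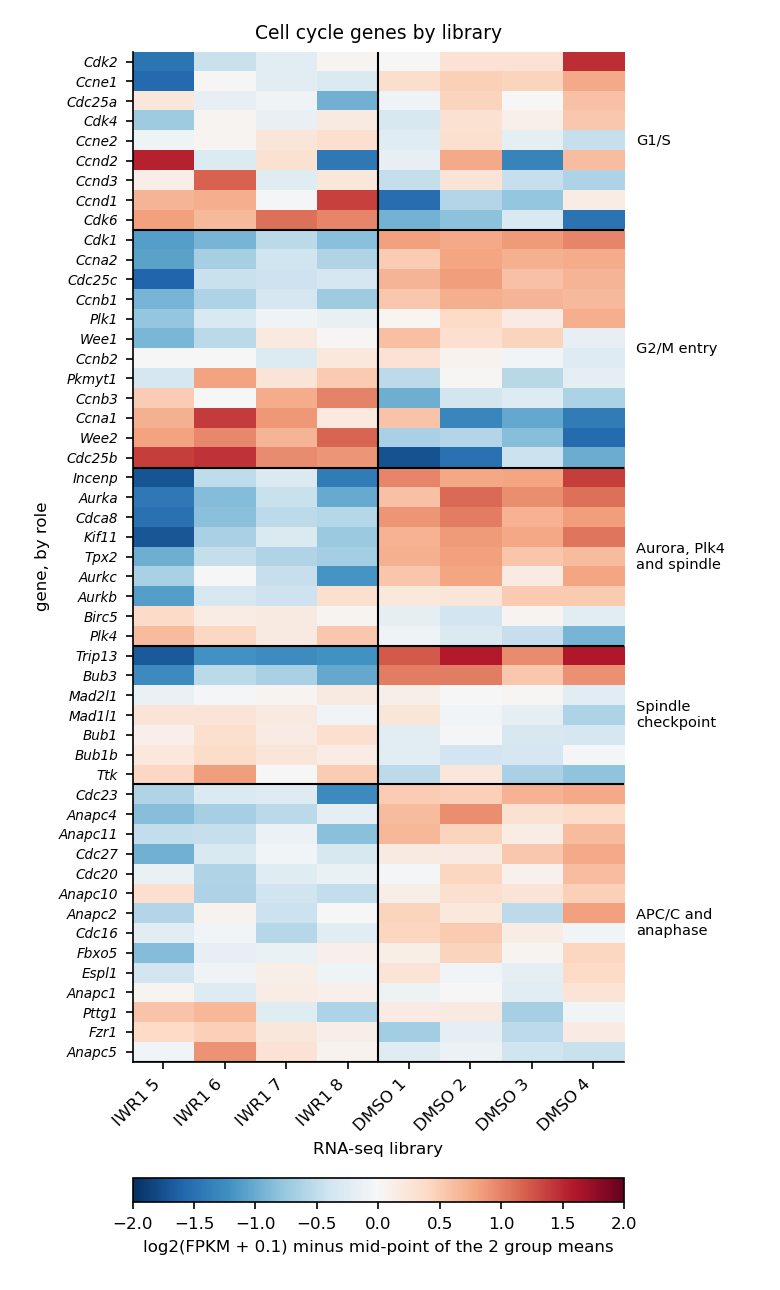
Level of each gene in each library as log2(FPKM + 0.1) minus the mid-point of the IWR1 mean and the DMSO mean, with IWR1 libraries left and DMSO libraries right, by role. Most rows of the aurora, Plk4 and spindle group are blue on the left and red on the right, Cdc25b and Wee2 are the reverse, and IWR1 library 5 is the darkest blue column.

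Genes of the same pathways outside the 51 were counted from lists of their neighbours. Of 24 further G1/S genes tested, 9 rose and 5 fell, with a median log2 fold change of 0.64. Their smallest adjusted p-values belonged to the repressive E2F factor E2f4, at 116 ± 24.0 FPKM in IWR1 and 43.5 ± 6.48 FPKM in DMSO (SD, n = 4 each), and to the CDK inhibitors Cdkn2c and Cdkn1c. Cdkn2c averaged 15.2 ± 3.02 FPKM in IWR1 and 4.44 ± 0.819 FPKM in DMSO, and Cdkn1c 12.3 ± 3.51 FPKM in IWR1 and 2.05 ± 1.17 FPKM in DMSO (SD, n = 4 each). All 3 rose, by 1.25, 1.58 and 2.33 on the log2 scale.

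Of 17 further G2/M genes, 7 fell and 3 rose, led by falls of Cdk7, the kinase that activates other CDKs (fell by 1.73), Lin9, a MuvB subunit (fell by 1.81), and the checkpoint kinase Chek2 (fell by 1.47). Of 30 further kinetochore and spindle genes, 20 fell and 2 rose, and their median log2 fold change was -1.06. Those with the smallest adjusted p were the microtubule depolymerase Kif2c (fell by 1.87), Mad2l2 (fell by 2.33) and the midzone protein Prc1 (fell by 2.26). Of 9 further APC/C genes, 6 fell and 1 rose. Ube2c, the E2 enzyme of the APC/C, averaged 471 ± 102 FPKM in IWR1 and 1463 ± 311 FPKM in DMSO (SD, n = 4 each) and fell by 1.84, and the subunits Anapc7 (fell by 1.94) and Anapc15 (fell by 0.87) followed it. Over the 4 lists 38 of 80 fell (47.5%) and 15 rose (18.8%), with a median level of 30.2 FPKM, and the shares of tested genes averaging 10 FPKM or more, given above, were 45.5% lower and 28.0% higher.

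Promoters of 300 bases were listed for 40 of the 51 genes, 45 in all, and the words were searched on both strands. No entry was listed for Ccnd1, Ccnd2, Ccne2, Ccna2, Cdc25c, Wee1, Pkmyt1, Aurkb, Incenp, Tpx2 and Cdc23. TTTGAA occurred in 9 of 21 promoters of genes that fell (42.9%), in 1 of 5 of genes that rose (20.0%) and in 3 of 19 of those not called (15.8%). It occurred in 13.0% of promoters of all genes tested and in 17.9% of all 32851 promoters. The falling genes with the word were Cdk1, Plk1, Aurka, Cdca8, Kif11, Bub3, Cdc20 and Fbxo5, and Bub3 counts for 2 overlapping promoters. The 21 promoters of genes that fell belong to 18 genes, since Bub3, Anapc10 and Anapc11 each have 2 overlapping promoters. Ttk rose with it, and Ccnb2, Bub1b and Espl1 carried it without a call.

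CCAAT occurred in 17 of 21 promoters of falling genes (81.0%), in 3 of 5 of rising genes (60.0%) and in 9 of 19 of those not called (47.4%), and in 38.4% of promoters of tested genes. The overlapping promoters of Bub3, Anapc10 and Anapc11 all hold it and are each counted in the 17. The E2F words TTTGGCGC and TTTCGCGC were each found in 1 of the 45 promoters (2.22%), against 0.883% and 0.569% of promoters of tested genes and 0.514% and 0.323% of all promoters. These matches describe the letters in the window and show no binding.

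The deposited ATAC-seq results are a list of 2345 regions higher in IWR1 and a list of 1400 lower in IWR1, with no value per collection. A region of the higher list lay within 10 kb of a boundary of 7 of the 51 genes, and of 13.5% of 14964 tested genes with a position. These were Ccnd1, Ccna1, Cdca8, Bub1, Cdc20, Cdc27 and Anapc5. A region of the lower list lay within 10 kb of a boundary of 8 of the 51 genes, and of 4.48% of tested genes. These were Cdc25b, Aurkc, Trip13, Cdc20, Cdc23, Anapc4, Anapc10 and Espl1, of which 6 fell in RNA, Cdc25b rose and Espl1 was not called. Of all 51 genes 49.0% fell. The share that fell among all tested genes near a lower region was not computed, so a link between region and RNA was not tested.

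A lower region of 1068 bases at chr4:118436879-118437947 covered the start of Cdc20. The lower region nearest to Trip13, at chr13:73938809-73939809, lay 1014 bases before the gene's annotated 5′ boundary. Ccna1 overlapped a higher region that lay 1536 bases from the outermost 5′ boundary of the gene. The same region covered the whole listed promoter of Ccna1 (chr3:55055006-55055305). Cdk6 held a higher region inside the gene, more than 10 kb from either boundary and so outside the count within 10 kb. Regions of the lower list also overlapped Cdc23 and Anapc4, and Cdc20 had a region of each list within 10 kb.

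In the authors' deposited table, 9 of the 51 genes were higher and 25 lower at an adjusted p under 0.05. The sign of the log2 fold change in the authors' deposited table matched that of the edgeR fit for all 51 genes. Models of 17 of the 51 genes overlap another counted gene, among them Cdk2, Ccna2, Aurka, Wee2, Cdc20, Cdc23 and Anapc10, and since the use of strand in counting is not stated, their values are less certain.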

How the data were processed

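RNA-seq and ATAC-seq libraries were made from pooled 2-cell embryos, and the RNA-seq libraries with the SMART-Seq v4 kit, per the labels' protocols. The authors deposited raw counts per gene and library, not normalized per the file headers, with FPKM values, log2 fold changes and p-values of their own comparison. Per the submitters' processing notes, the tools included STAR 2.5.1b, featureCounts 1.5.0-p1, Bowtie2 2.2.6, cutadapt 1.11, MACS2 and DESeq2 with build mm10. No source used here says how the deposited ATAC-seq regions were selected.

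FPKM was computed for all 8 libraries by dividing each count by the gene length in the table and by its library's total, and differed from the FPKM the authors deposited for the DMSO libraries by at most 2.62e-10. Counts were tested with edgeR 4.0.16 (R 4.3.3; quasi-likelihood test, TMM scaling, filterByExpr, treatment as the only term, Benjamini-Hochberg adjustment over 14994 genes, threshold 0.05). A log2 fold change is relative to TMM scaling, whereas FPKM is relative to the library total. The script was tested on simulated data. DESeq2 1.42.0, other scalings, other filters, depth classes and leaving out each library were the alternatives. IWR1 columns are numbered 5 to 8 and were assigned to their treatment only, and 12 other per-library columns were not used. Each library is a separate collection, so p-values measure the spread between collections, and counts limit precision only for scarce genes. Gene positions, promoters and strands came from RefSeq tables of GRCm38.p6, the same build as mm10, and matched all 51 genes by position.

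The 51 genes, the related gene lists, the marker lists and the pairs were chosen with earlier results of these data known. All 51 genes are named. Per role group, up to 4 genes with the smallest adjusted p and those against the direction of most of their group are given library by library, with others that a comparison rests on. Of each further list the 3 genes with the smallest adjusted p are named.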

Additional observations from a re-analysis of the deposited data

Results flagged for a closer look

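In 6 of 102 groups of 4 libraries (51 genes in each treatment), 1 library stood apart from the other 3 by Dixon's criterion, which is passed by chance in about 1 in 20 groups. Of these, 3 were in IWR1 library 5: Cdc25c at 30.7 FPKM and Trip13 at 6.46 FPKM were its group's lowest values, and Anapc10 at 95.9 FPKM its highest. In DMSO, Cdk2 stood out at 41.2 FPKM in library 4, Ccnd3 at 7.67 FPKM in library 2 and Ccna1 at 2.00 FPKM in library 1. Cdc25c and Trip13 were called lower in every fit without 1 library. Without the library that stood apart, Cdk2 was no longer called (edgeR adjusted p = 0.0586) and Ccna1 was called higher (edgeR adjusted p = 0.0248).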

How the results depend on the processing

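No paired analysis was possible because the IWR1 columns are numbered 5 to 8 and carry no replicate number of the labels. Among the less deep libraries alone 1906 genes were higher and 2088 lower, and the 51 genes gave 3 higher and 13 lower. Among the deeper libraries alone 2063 genes were higher, and of the 51 genes 3. With 2 libraries per treatment these comparisons have fewer samples by construction. DESeq2 size factors and no filter on low counts changed no call among the 51 genes. Scaling by totals alone moved the median of all genes to 0.34 (4052 higher, 3247 lower; 9 and 20 of the 51 genes) and median-centred libraries moved it to 0.05 (3099 higher, 4110 lower; 5 and 27 of the 51 genes). DESeq2 called 4114 genes higher and 3904 lower, and 9 and 25 of the 51.

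G1/S genes called higher numbered 1 among the less deep libraries, 0 among the deeper, 0 with a mean of at least 5 FPKM (Cdk6 and Ccnd1 average less and were not tested there), 1 with median centring and 1 to 2 without 1 library; those called lower numbered 0 among the less deep libraries and 1 to 3 without 1 library. In the aurora, Plk4 and spindle group 0 were higher in either depth class. Spindle checkpoint genes called higher numbered 2 with DESeq2, 2 with totals alone, 0 among the less deep libraries, 3 with a mean of at least 5 FPKM and 0 to 1 without 1 library. APC/C genes called higher numbered 1 with DESeq2, 1 with totals alone, 2 with a mean of at least 5 FPKM and 0 to 1 without 1 library; those called lower numbered 5 with totals alone and 1 among the less deep libraries. Apart from the genes not tested and the smaller samples, the cause was not tested.

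Reversals occurred among uncalled genes. Ccnd2 was at -0.33 with depth class as a term, -1.56 among the deeper libraries and -0.91 to 0.66 without 1 library. Ccne2 was at -0.0038 among the less deep libraries and -0.0268 with median centring. With a mean of at least 5 FPKM, and scaling recomputed on those genes, Ccnb2 was at 0.0115, Mad2l1 at 0.0777 and Anapc1 at 0.0601. With totals alone, Mad2l1 was at 0.0407 and Anapc1 at 0.0201, and Anapc1 was at 0.12 among the less deep libraries. Birc5 was at -0.15 among the deeper libraries. Pttg1 was at -0.0242 with median centring and -0.0925 to 0.31 without 1 library. The log2 ratio difference Bub1b to Bub1 was -0.0091 with 1 FPKM added. ATAC-seq regions overlapping the gene were found for 2 (higher list) and 3 (lower list) of the 51 genes. Of all tested genes with a position, 9.84% and 4.12% had such a region. Regions within 50 kb were found for 17 and 15 of the 51 genes, against 28.1% and 14.1% of tested genes.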
